A study of Mus musculus with 1 sample.

Results

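Ly6c2 Il2rb CD8 cells were 213 of the 1600 cells called in the blood of 1 vehicle-treated mouse with small cell lung cancer (SCLC). They were selected on measured transcripts. A member cell had more than 1330 UMIs (unique molecular identifiers, short tags that let each captured RNA molecule be counted once), at least 10% of them on ribosomal protein genes, at least 1 UMI of the CD3 genes Cd3d, Cd3e and Cd3g, at least 1 UMI of the CD8 genes Cd8a and Cd8b1, no Cd4 UMI, no UMI of Gzma, Gzmb, Gzmk or Cx3cr1, and at least 3 UMIs of Ly6c2 and Il2rb together. Levels of these genes in the members therefore only restate the selection. The mouse belonged to the autochthonous SCLC model on a C57BL/6 background, in which conditional Rb1 and Trp53 alleles are deleted in the airway by intratracheal Adeno-Cre virus. It received phosphate-buffered saline every 3 days, and the labels give neither its age nor its sex. From 150 µl of its blood, T cells were enriched by negative selection, and gene expression and TCR libraries were read from the same droplets. All groups below are cells of this 1 library, so no spread between animals could be measured and nothing was tested. Intervals are exact 95% intervals, Poisson for UMI sums and their ratios and binomial (Clopper-Pearson) for shares of cells, and they cover counting error only.

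CD8 T cells carry a T cell receptor (TCR) that recognises peptides on MHC class I. Naive cells recirculate through lymph nodes with the help of CCR7. Memory cells keep themselves alive on IL-15, which they receive through CD122, the receptor chain encoded by Il2rb, and many of them carry the surface protein Ly6C, encoded in part by Ly6c2. One kind, called virtual memory cells, is known to arise without contact with foreign antigen, to carry much CD122 and CD44 and to carry little of the α4 integrin encoded by Itga4, whereas memory cells made in response to an infection carry more α4 integrin.

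Of the 1600 called cells, 983 reached 10% ribosomal protein UMIs, 899 of these held a CD3 UMI, 541 of these a CD8 UMI, and 507 of these no Cd4 UMI. These 507 are called CD8 T cells below. The 213 members made up 42.0% of them (37.7% to 46.4%). A UMI of Gzma, Gzmb, Gzmk or Cx3cr1 was found in 107 other CD8 T cells, 79 had neither those genes nor more than 1 or 2 UMIs of Ly6c2 and Il2rb, and 108 had none of either. The last group, CD8 T cells without a Ly6c2 or Il2rb UMI, was the main comparison, and the 107 cells with a granzyme or Cx3cr1 UMI were the second. The rule on granzymes separated cells that otherwise overlapped, since 64 of those 107 also held 3 or more Ly6c2 and Il2rb UMIs. The limit on ribosomal protein genes kept out 36 barcodes that met every other condition, 7 of them with a share of 5% to 10%.

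The members were the deeper cells. They held 2027089 UMIs in all, 2208 to 17444 per cell with a median of 9758, against a median of 5554.5 in the CD8 T cells without a Ly6c2 or Il2rb UMI and 5655 in those with a granzyme or Cx3cr1 UMI. A shallow cell reaches 3 UMIs less easily. When each cell was thinned to 2500 UMIs before the rule was applied, 146 of 476 CD8 T cells were members (30.7%). Of these 146 cells, 132 were also members before thinning, out of 212 such members deep enough to be thinned. The remaining cells met the rule only after thinning, which can also remove a UMI that keeps a cell out. Which UMIs these cells lost was not tested. Ribosomal protein genes took a median of 35.4% of a member's UMIs, 32.5% in the cells without a Ly6c2 or Il2rb UMI and 19.5% in the cells with a granzyme or Cx3cr1 UMI. Levels below are a gene's UMIs summed over a group's cells and divided by the group's total, per 10000 UMIs, which takes depth out of a level but not out of membership.

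Ly6c2 (chr15:75108161-75112066, RefSeq genes on GRCm38) contributed most of the UMIs that chose the members. Its UMIs per member cell had a median of 12 and a highest value of 52, while Il2rb (chr15:78479256-78511621) had a median of 2 and a highest value of 14. Both genes were found in 170 members, Ly6c2 alone in 37 and Il2rb alone in 6. Most members were far from the limit of 3 UMIs, and 140 of them had more than 10. The 17 members just inside the limit, at exactly 3 UMIs, and the 32 CD8 T cells just outside it, at 2, held Ccr7 at 7.68 and 7.06 per 10000 and Dapl1 at 4.07 and 4.04. Ccl5 was at 8.15 and 7.57, but 101 of the 106 UMIs and 116 of the 178 UMIs were in 1 cell each, and without those cells it was at 0.396 and 2.76. Ly6c1, a near-identical copy of Ly6c2 with which reads could be shared, held 6 UMIs in the members and 9 in the cells without a Ly6c2 or Il2rb UMI.

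**Figure D1:**
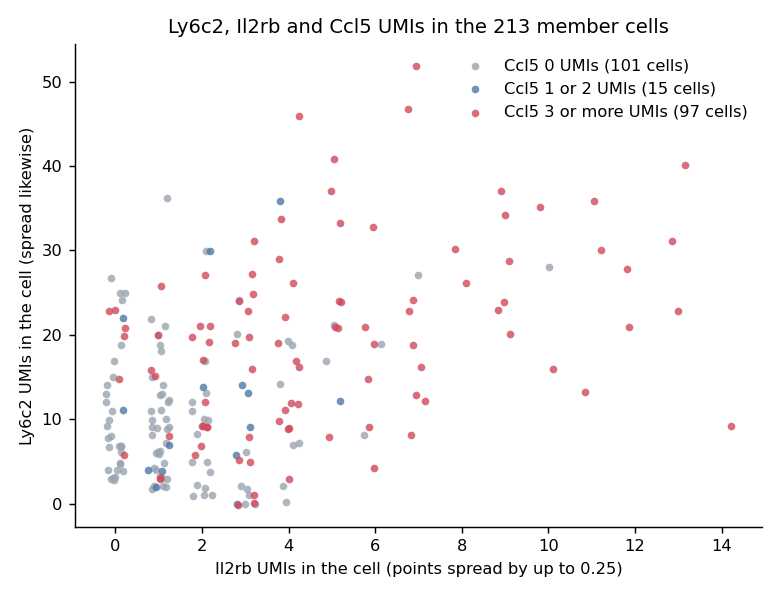
Each point is 1 of the 213 member cells, placed by its Il2rb UMIs (x axis) and Ly6c2 UMIs (y axis) and coloured by its Ccl5 UMIs. Members with 3 or more Ccl5 UMIs (97 cells) took up most of the right side of the plot, and members without a Ccl5 UMI (101 cells) most of the left.

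The 3 markers of the label that the rule did not use were found in a part of the members. Cd160, a receptor of the immunoglobulin superfamily shared with natural killer (NK) cells, was at 0.271 UMIs per 10000 (0.204 to 0.353) from 55 UMIs in 35 cells. Xcl1, a chemokine that attracts cross-presenting dendritic cells, was at 0.257 (0.192 to 0.336) from 52 UMIs in 34 cells. Klra7, a Ly49 receptor for MHC class I, was at 0.316 (0.243 to 0.403) from 64 UMIs in 22 cells, and 24 of those UMIs were in 1 cell. Over the 3 genes, 67 of 213 members held a UMI (31.5%, 25.3% to 38.2%) and 146 held none. The CD8 T cells without a Ly6c2 or Il2rb UMI held such a UMI in 1 of 108 cells, those with a granzyme or Cx3cr1 UMI in 14 of 107, and B cells in 0 of 61. With every cell thinned to 2500 UMIs the share was 14.2% of the members (30 of 212), 0 of 95 cells without a Ly6c2 or Il2rb UMI and 0 of 51 B cells. It was 6.73% (2.75% to 13.4%) of the cells with a granzyme or Cx3cr1 UMI, an interval that overlaps that of the members (9.76% to 19.6%). At these low levels a cell without a UMI may still express the gene, so the 3 markers neither include nor leave out single members, and the cells are called here by the genes that chose them.

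The gene that separated the members most from CD8 T cells without a Ly6c2 or Il2rb UMI was Ccl5 (chr11:83525778-83530518), a chemokine that memory CD8 T cells are known to store as transcript. It was at 27.0 per 10000 in the members, from 5483 UMIs, and at 0.143 in the comparison cells, from 9 UMIs, a ratio of 189 (99.3 to 413). The ratio moved with the setting. It was 584 with free RNA subtracted, and 11.5 when the 79 cells with 1 or 2 Ly6c2 and Il2rb UMIs, which held 266 Ccl5 UMIs, joined the comparison. The CD8 T cells with a granzyme or Cx3cr1 UMI held 215 per 10000. The pooled value hides that the members fell into cells with and without the transcript. No Ccl5 UMI was found in 101 members, 1 or 2 in 15 and 3 or more in 97 (45.5%, 38.7% to 52.5%), and 80 of the last group had at least 10, with a highest value of 203. No cell without a Ly6c2 or Il2rb UMI held more than 2, and 53 of 61 B cells held none. Ccl5 was for this reason used to divide the members, a division made after its values had been seen.

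Members with 3 or more Ccl5 UMIs and members with 0 to 2 were close in most genes and differed in some that the division did not use. Of 2483 genes compared, 38 (1.53%) were at least 2-fold higher in the former and 21 (0.846%) at least 2-fold lower, with a median ratio of 1.03. Of 23 NK receptor genes listed, 3 could be compared and 1 of them was at least 2-fold higher, with a median of 1.36. The whole list gave 1413 UMIs in the members with Ccl5 and 809 in the others, with Hcst, a signalling adaptor, its most abundant gene. Several scarcer receptor genes of the list, picked here after their values were seen, divided more sharply. The inhibitory receptor gene Klrc1 gave 106 UMIs in 31 of those 97 cells and 1 UMI in the other 116. The activating receptor gene Klrk1 gave 82 and 3 UMIs, and the lectin-like receptor gene Klre1 51 and 1. The 9 Ly49 genes listed (Klra1 and Klra3 to Klra10) together gave 163 UMIs in 44 of the 97 cells against 5 UMIs in 5 of the 116. Ly49 genes are near-identical copies, so the split of reads among them is uncertain while their sum is less so. A Cd160, Xcl1 or Klra7 UMI was found in 56 of the 97 members with Ccl5 (57.7%, 47.3% to 67.7%) and in 11 of the 116 others (9.48%, 4.83% to 16.3%). After thinning these shares were 25.8% and 4.35%. Median depth was 10295 UMIs in the members with Ccl5 and 9383.5 in the others.

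Some transcription factor genes and S100 genes were also higher in the members with Ccl5. Eomes, a T-box factor needed for memory CD8 T cells, was at 1.09 per 10000 in the members with Ccl5 and 0.265 in the others, a ratio of 4.11 (2.69 to 6.47). Tbx21, which encodes the related factor T-bet, was at 0.741 and 0.0948, a ratio of 7.81 (4.01 to 17.0). Id2, a regulator that favours effector fates, was at 2.14 and 0.540, a ratio of 3.96 (2.94 to 5.41). In the list of 17 effector and memory transcription factors, 7 could be compared and 3 of them (Eomes, Id2 and Hopx) were at least 2-fold higher; Tbx21 was below the level needed. The list's median ratio was 1.20. Of the list of S100, galectin and annexin genes, several of which are known to go with past activation, 4 of 10 were at least 2-fold higher, among them S100a6 at 5.39 against 0.474 (ratio 11.4, 8.50 to 15.5) and Lgals1 at 4.22 against 1.19 (ratio 3.53, 2.89 to 4.35). S100a6 was found in 78 of the 97 members with Ccl5 and in 12 of the 116 others.

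Some genes of naive cells were lower in the members with Ccl5, and others were not. Igfbp4 was at 0.278 per 10000 against 3.80, a ratio of 0.0731 (0.0476 to 0.108), and Dapl1 at 1.24 against 4.58, a ratio of 0.272 (0.221 to 0.332). Ccr7, the lymph node homing receptor, was at 4.02 against 7.68, and Lef1, a transcription factor of naive T cells, at 4.24 against 7.55. By contrast, Il7r, the receptor chain for the survival cytokine IL-7, was at 9.95 against 9.01. Of 14 genes of the naive list that could be compared, 3 were at least 2-fold lower and none at least 2-fold higher, with a median ratio of 0.708. Some interferon-response genes were also lower in the members with Ccl5. Ifi27l2a was at 0.555 against 1.77 and Gbp2 at 0.278 against 0.768, and they were among the 3 of 10 genes of that list at least 2-fold lower. Cd74, an MHC class II chaperone chosen here after its values were seen, showed how 1 cell can set a pooled level. It gave 138 UMIs in the members without Ccl5 and 6 in the others, and 129 of them were in 1 cell.

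The α4 integrin gene Itga4 (chr2:79255426-79333114) had its lowest level in the members with Ccl5. It was at 1.06 per 10000 there (0.865 to 1.28), 2.53 in the other members, 3.39 (2.95 to 3.88) in the CD8 T cells without a Ly6c2 or Il2rb UMI and 10.9 in those with a granzyme or Cx3cr1 UMI. A UMI of Itga4 was found in 39 of the 97 members with Ccl5, 88 of the 116 others, 76 of 108 and 98 of 107 cells of these groups, in that order. After thinning, the shares were 14.4%, 42.6%, 53.7% and 80.8%, and the share was 49.0% in B cells, which carry the integrin themselves. In this gene the members with Ccl5 were below both of the latter groups. They were also below both in the summed MHC class I list (79.8 against 94.2 and 127), TCR signalling list (36.5 against 41.3 and 51.9) and interferon list (12.2 against 19.6 and 23.0), and above both in Bcl2 (7.20 against 4.76 and 3.34), whereas S100a6, Lgals1, Nkg7, Eomes and Tbx21 were between them. None of these sides was particular to the members with Ccl5 in the 3 lists and Bcl2. The other members were at 85.7, 35.5 and 19.4 in the 3 lists and at 5.38 in Bcl2, on the same sides of both groups. Itgb1, which encodes the β1 chain that pairs with α4 and other α chains, went the other way from Itga4, at 2.20 in the members with Ccl5 and 0.294 in the other members (ratio 7.49, 5.12 to 11.3). Itgae, the αE integrin chain of cells lodged in epithelium, was at 0.0309 from 3 UMIs and at 0.474 from 50.

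**Figure D2:**
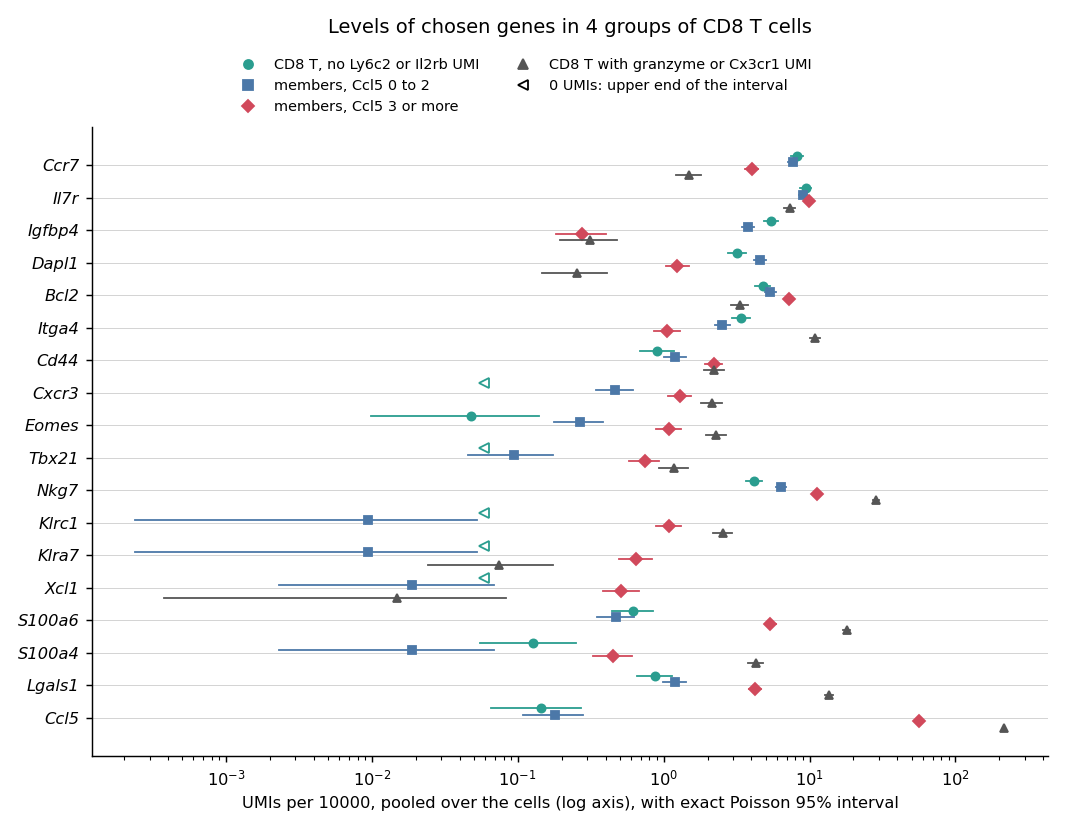
UMIs per 10000 on a log axis for 18 genes in 4 groups of CD8 T cells, with bars for exact 95% Poisson intervals and open triangles where no UMI was found. Itga4 was lowest in the members with 3 or more Ccl5 UMIs (1.06), Bcl2 was highest there (7.20), and Ccr7 and Il7r were higher in both groups of members than in the cells with a granzyme or Cx3cr1 UMI.

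How the members varied with Il2rb is given as a description only, since Il2rb is a gene of the rule and lends the Ccl5 division no support. Members were grouped by 0, 1, 2, 3 to 4 and 5 or more Il2rb UMIs, with 37, 46, 31, 50 and 49 cells. The share with 3 or more Ccl5 UMIs was 16.2% in the cells without Il2rb, 15.2% at 1 UMI, 41.9% at 2, 58.0% at 3 to 4 and 85.7% (72.8% to 94.1%) at 5 or more. Cells with a Cd160, Xcl1 or Klra7 UMI numbered 1, 6, 7, 19 and 34. From the lowest to the highest group, Cd44, the adhesion receptor of activated and memory cells, went from 0.746 to 2.40 per 10000, and Bcl2, the survival factor that IL-15 is known to sustain, from 5.02 to 8.43. Over the same groups Dapl1 went from 5.25 to 0.698, Ccr7 from 6.95 to 3.85 and Itga4 from 2.81 to 1.02. The groups between did not always follow this order, with Bcl2 at 4.68 and Ccr7 at 7.28 at 1 UMI, and Ccr7 at 5.68 at 2 UMIs and 6.67 at 3 to 4. Ly6c2 itself was at 15.1 in the cells without Il2rb, at 11.3 at 1 UMI and at 20.8 at 5 or more. Cells without Il2rb could reach the limit only by Ly6c2, and the part of this in its level was not tested. Median depth was 8445 UMIs in the lowest group and 11828 in the highest, and its part in the grouping was not tested.

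**Figure D3:**
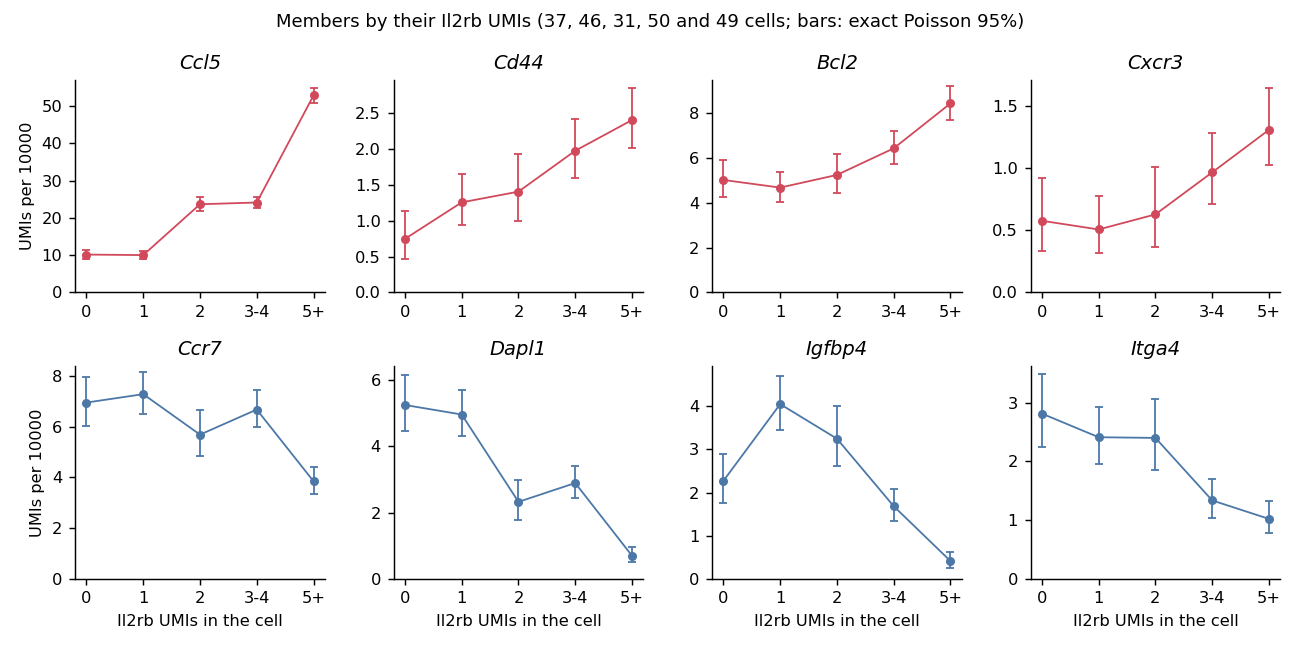
Levels of 8 genes in members grouped by their Il2rb UMIs (x axis), in UMIs per 10000 (y axis, from 0) with exact 95% Poisson bars. Ccl5, Cd44, Bcl2 and Cxcr3 were highest in cells with 5 or more Il2rb UMIs, and Ccr7, Dapl1, Igfbp4 and Itga4 were lowest there.

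Taken as one group, the members were close to CD8 T cells without a Ly6c2 or Il2rb UMI in most genes. Of 2544 genes compared, 21 (0.825%) were at least 2-fold higher in the members and 23 (0.904%) at least 2-fold lower, and the median ratio was 0.943. The balance moved with the weighting, to 24 higher and 40 lower when each cell counted equally and 51 and 90 after thinning. Among these genes, which had to reach a mean of 0.5 per 10000, the highest ratios after Ccl5 belonged to Hopx, a homeodomain protein of effector and memory T cells, at 1.56 against 0.318 (ratio 4.91, 3.13 to 8.15), to the class I myosin gene Myo1f (4.87, 2.90 to 8.85), to S100a6 (4.56, 3.29 to 6.48) and to the scaffold gene Ahnak (3.47, 2.60 to 4.71). Ctla2a, a cysteine protease inhibitor gene, Itgb1, the peptidoglycan recognition gene Pglyrp1 and the galectin gene Lgals1 followed, with ratios of 3.45, 3.45, 3.36 and 3.02, and then Plac8, the G protein subunit gene Gng2 and the adaptor gene Lax1, with 2.60, 2.36 and 2.35. Against cells with 0 to 2 Ly6c2 and Il2rb UMIs, Itgb1 (1.92) and Plac8 (1.55) no longer passed 2-fold, and Ctla2a was at 7.44 after thinning and 39.0 with free RNA subtracted. The lowest ratio was that of Ccr9, a chemokine receptor for homing to the gut, at 0.0937 against 1.07 (0.0879, 0.0498 to 0.148). Itgae was at 0.261 against 1.07 (0.245, 0.168 to 0.357) and Igfbp4 at 2.11 against 5.46 (0.387, 0.335 to 0.447). Between them stood Cpm (0.284), Rgcc (0.286), the ganglioside synthase gene St8sia1 (0.293), the death receptor gene Fas (0.347), Rpgrip1 (0.355), Als2cl (0.374), Gm14085 (0.376) and the amino acid transporter gene Slc6a19 (0.381).

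More genes differed in the members with Ccl5. Against the same comparison cells, members with 3 or more Ccl5 UMIs had 71 of 2585 genes at least 2-fold higher and 78 at least 2-fold lower. Members with 0 to 2 had 6 and 10 of 2540 genes. S100a6 was at 8.68 times the level of the comparison cells in the members with Ccl5 (6.26 to 12.3). It was at 0.763 times (0.492 to 1.19) in the members without it, an interval that holds 1. These S100a6 ratios rest partly on single cells. Of the 39 UMIs in the comparison cells 19 were in 1 cell, and of the 50 in the members without Ccl5 15 were in 1 cell. With and without Ccl5, Ctla2a was at 5.75 and 1.34 times, Lgals1 at 4.82 and 1.36 times, and Igfbp4 at 0.0508 and 0.696 times. A few genes did set the members without Ccl5 apart. Cxcr3, a chemokine receptor of memory and type 1 effector cells, gave 49 UMIs in them and none in the cells without a Ly6c2 or Il2rb UMI, at least 9.72-fold higher against a floor of 3 UMIs over that group. In the members without Ccl5, Plac8 was at 3.42 times (2.32 to 5.18) the level of the comparison cells. In the members with Ccl5 it was lower, at 1.71 times (1.12 to 2.67). Hopx was at 2.98 times (1.83 to 5.08) and Ccr9 at 0.151 times (0.0831 to 0.260) without Ccl5, and at 7.01 and 0.0193 times with it.

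**Figure D4:**
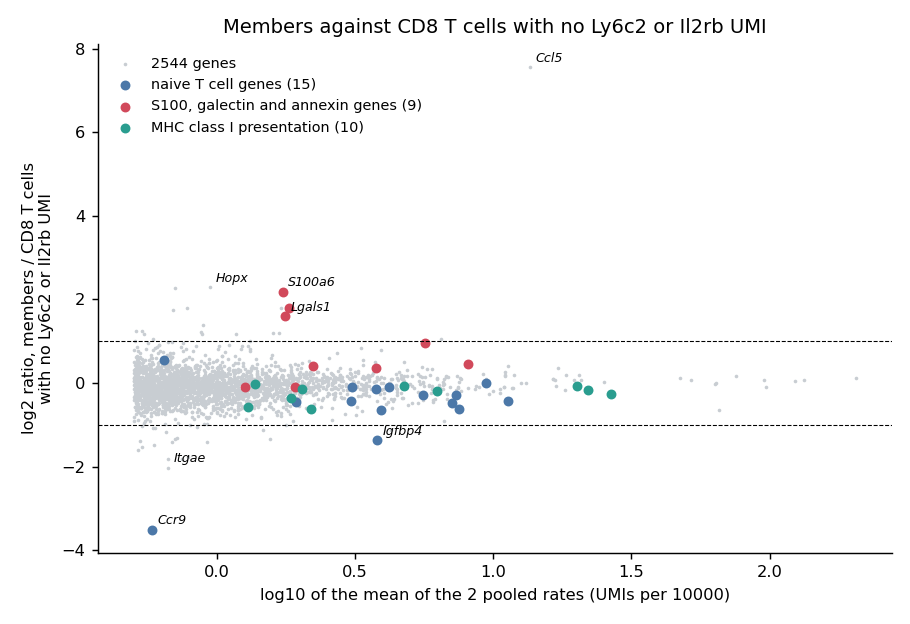
The log2 ratio of pooled UMIs per 10000 between the members and CD8 T cells without a Ly6c2 or Il2rb UMI (y axis) against the log10 of the mean level (x axis) for 2544 genes, with 3 gene lists in colour and dashed lines at 2-fold. Most genes lie close to the median ratio of 0.943, Ccl5 stands apart at the top, and MHC class I genes stay within 2-fold.

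Some effector genes outside the rule were present in the members at low levels, but Ccl5, described above, and Nkg7 were not among them. Several of these scarcer genes gave no UMI in the CD8 T cells without a Ly6c2 or Il2rb UMI. Their ratios are bounds against 3 UMIs in that group. Cxcr3 gave 175 UMIs in 94 members (at least 18.1-fold higher), the IL-18 receptor gene Il18rap 93 (at least 9.60-fold), Tbx21 82 (at least 8.47-fold), the granzyme gene Gzmm 66 (at least 6.82-fold) and Fasl, the ligand of Fas, 38 (at least 3.92-fold). Eomes was at 0.661 against 0.0478 from 134 and 3 UMIs, a ratio of 13.8 (4.63 to 67.9). Of 6 cytolytic granule genes compared, Nkg7 was at least 2-fold higher, at 8.71 against 4.19 (ratio 2.08), and the median ratio was 1.53. Nkg7 was below 2-fold against cells with 0 to 2 Ly6c2 and Il2rb UMIs (1.80) and after thinning (1.98), and Cst7, at 1.99, was past it in some alternatives (up to 2.16). Perforin, encoded by Prf1, was at 0.483 (0.392 to 0.589) against 0.318 (0.195 to 0.492). Ifng, Ccl3 and Il2 gave 1 UMI each over all members, and Ccl4 gave 5.

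Most cytokine receptor and survival genes that reached the level needed stayed within 2-fold. Of the IL-2 and IL-15 receptor and signalling list, 7 genes could be compared and none passed 2-fold, with a median ratio of 1.14. The common chain gene Il2rg was at 5.81 against 6.75, Jak1 at 4.93 against 4.32, Stat5b at 0.587 against 1.07 (ratio 0.550, 0.405 to 0.754) and Bcl2 at 6.26 (5.92 to 6.61) against 4.76 (4.24 to 5.33). Il2ra, the third chain of the high-affinity IL-2 receptor, gave 1 UMI in the members. Among 9 of 16 other cytokine receptor genes, Il18r1 was past 2-fold, at 1.22 against 0.541 (ratio 2.25, 1.57 to 3.32), and the median was 1.20. Il10rb, at 1.99, was past 2-fold in some alternatives (up to 2.05). Of 15 naive T cell genes compared, Igfbp4 and Ccr9 were at least 2-fold lower, none was at least 2-fold higher and the median ratio was 0.745. Il7r was at 9.46 against 9.40. The 10 MHC class I presentation genes all stayed within 2-fold with a median of 0.886, and B2m, the light chain of MHC class I, was at 19.6 against 20.5. Of 11 TCR signalling genes none passed 2-fold, with a median of 0.936. Of 10 interferon-response genes 2 were at least 2-fold lower, with a median of 0.875; Gbp2, at 0.499, no longer passed 2-fold in 6 of 8 alternatives. Of 10 homing and adhesion genes Itgb1 was at least 2-fold higher and Itgae at least 2-fold lower, with a median of 0.843, and Cd44 was at 1.69 against 0.908 (ratio 1.86, 1.40 to 2.51). Of 9 S100, galectin and annexin genes 3 were at least 2-fold higher, with a median of 1.37. None of 2 NK receptor genes, 5 costimulatory receptor genes, 2 Ly6 genes and 2 genes of the list of inhibitory receptors and Tox (Cd5 and Tox) that reached the level needed passed 2-fold.

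Several genes of inhibitory receptors gave few or no UMIs. The list of inhibitory receptors and Tox (11 genes) was at 3.03 per 10000 against 3.25 in the CD8 T cells without a Ly6c2 or Il2rb UMI and 9.27 in those with a granzyme or Cx3cr1 UMI, and its most abundant gene was Cd5, a receptor that dampens TCR signals, at a ratio of 1.48 to the former. No UMI of Lag3 or Havcr2 was found in the 2027089 UMIs of the members, where 3 UMIs would be 0.0148 per 10000, and Pdcd1, which encodes PD-1, gave 1 UMI against 0.836 per 10000 in the CD8 T cells with a granzyme or Cx3cr1 UMI. Tigit was at 0.0888 against 1.39 in those cells, and Klrg1, a receptor of late effector cells, gave no UMI against 0.701. All 5 UMIs of the division marker Mki67 were in 1 member, and the 10 division genes together, led by Pcna, were at 1.30 per 10000 (1.15 to 1.47), against 0.860 (0.646 to 1.12) in the cells without a Ly6c2 or Il2rb UMI and 2.40 (2.05 to 2.80) in those with a granzyme or Cx3cr1 UMI.

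The members were farther from the CD8 T cells with a granzyme or Cx3cr1 UMI. Of 2782 genes, 26 (0.935%) were at least 2-fold higher in the members and 154 (5.54%) at least 2-fold lower, with a median ratio of 0.806 (-0.31 on the log2 scale), beside which the list medians here should be set. Ribosomal protein genes, whose share of UMIs was larger in the members, are part of the totals behind these levels, and their part in that median was not tested. Of 13 naive genes compared, 6 were at least 2-fold higher, with a median of 1.87. Among them were Dapl1 (ratio 11.7, 7.28 to 20.3), Igfbp4 (6.74), Actn1 (4.59), Ccr7 (3.97, 3.24 to 4.92) and Satb1 (2.56). Of 12 S100, galectin and annexin genes, 10 were at least 2-fold lower, with a median of 0.249. S100a4 was at 0.227 against 4.30 (ratio 0.0528) and Lgals3 at 0.0691 against 2.18 (ratio 0.0317). Of 9 transcription factors compared, 5 were at least 2-fold lower and none higher, with a median of 0.387, among them Zeb2, a transcription factor of terminal effector cells, at 0.0592 against 1.61 (ratio 0.0367, 0.0184 to 0.0668). Of 13 homing genes 9 were at least 2-fold lower, with a median of 0.405, such as the inflammatory chemokine receptor gene Ccr2 (0.121) and S1pr5, a sphingosine phosphate receptor of circulating effector cells (0.129). Bcl2 was on the other side, at 6.26 against 3.34 (ratio 1.87). Ccl5 in the members was 0.126 times the level in these cells.

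Markers of other blood cells were low. Ncr1 of NK cells, S100a8, Retnlg and Csf3r of neutrophils and Fcgr3 of monocytes and NK cells gave no UMI in the members, and the neutrophil list gave 1 UMI, of S100a9. The monocyte list was at 1.07 per 10000 against 1.15 in the CD8 T cells without a Ly6c2 or Il2rb UMI, with Cst3 its most abundant gene. The NK list was at 0.350 (0.274 to 0.442) against 0.0637, and 52 of its 71 UMIs were Klre1. The platelet list was at 0.261 against 0.271, with Pf4 most abundant, and 4 members held 3 or more platelet UMIs. The B cell list was at 1.96 against 1.89, and 287 of its 397 UMIs were Ighm, the immunoglobulin μ gene. In 2 members Cd79a, Ms4a1 and Ebf1 together reached 3 UMIs. These cells held 85 of the 397 UMIs and 133 of the 144 Cd74 UMIs, both were predicted doublets, and the list was at 1.56 without them. Ighm was found in 126 members and 62 of the 108 comparison cells but in 15 of the 107 cells with a granzyme or Cx3cr1 UMI, at 1.42, 1.66 and 0.448 per 10000, and the source of this difference was not tested. The γδ TCR gene Trdc gave 17 UMIs in 6 members. Scrublet, which predicts droplets with more than 1 cell, marked 3 members and 10 of the 1600 called cells.

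The TCR libraries were not used by the rule. A clonotype, the set of TCR chains that the authors' pipeline assigned to a barcode, was given to 206 of 213 members (96.7%, 93.3% to 98.7%), 94 of 108 CD8 T cells without a Ly6c2 or Il2rb UMI (87.0%, 79.2% to 92.7%) and 100 of 107 with a granzyme or Cx3cr1 UMI (93.5%). The member cells were deeper than the others, and the part of depth in these shares was not tested. A TRA and a TRB chain were paired in 178 of the 206 (86.4%). The members carried 203 different clonotypes. Only 8 of the 206 cells (3.88%, 1.69% to 7.51%) belonged to a clonotype of 2 or more cells anywhere in the library, close to 3 of 94 (3.19%, 0.663% to 9.04%) in the cells without a Ly6c2 or Il2rb UMI. In the cells with a granzyme or Cx3cr1 UMI it was 42 of 100 (42.0%, 32.2% to 52.3%). These 100 cells fell into 73 clonotypes, the largest with 7 of them. The interval takes cells of 1 clonotype as independent, so it understates the uncertainty. Members with Ccl5 had 6 of 93 such cells (6.45%, 2.40% to 13.5%) and the others 2 of 113 (1.77%, 0.215% to 6.25%), values whose intervals overlap.

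**Figure D5:**
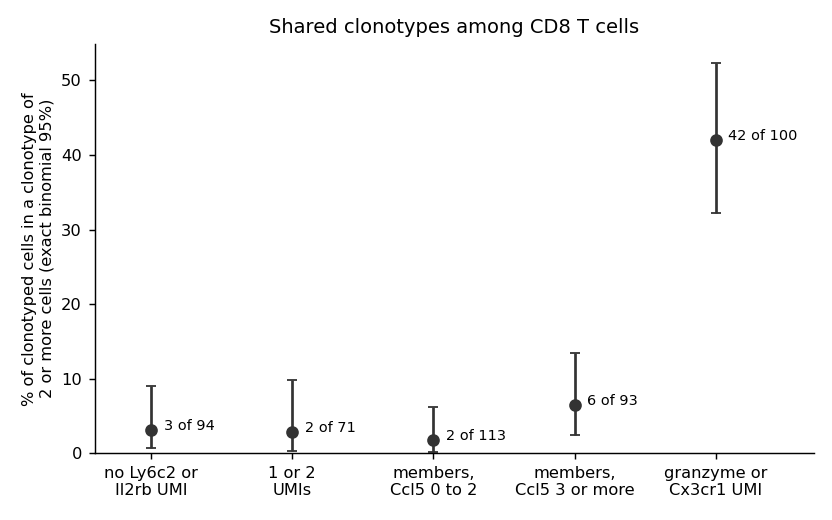
Percent of clonotyped cells in a clonotype of 2 or more cells (y axis, from 0) in 5 groups of CD8 T cells, with exact 95% binomial intervals and the counts beside each point. The members with 3 or more Ccl5 UMIs (6 of 93) and with 0 to 2 (2 of 113) both lie below the cells with a granzyme or Cx3cr1 UMI (42 of 100).

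Among the 5 clonotypes behind those 8 cells, 3 held members with Ccl5. Their CDR3 sequences are given because clonotypes 1 and 4 join such members to granzyme cells and clonotype 22 joins a pair of such members. CDR3 is the stretch of each TCR chain that meets the peptide. The sequences are those of the deposited contigs, 5′ to 3′, with the first codon (cysteine) and the last (phenylalanine), which frame the CDR3, in capitals.
Clonotype 1 TRB: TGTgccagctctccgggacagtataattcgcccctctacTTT
Clonotype 1 TRA: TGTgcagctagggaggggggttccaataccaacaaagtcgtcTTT
Clonotype 4 TRB: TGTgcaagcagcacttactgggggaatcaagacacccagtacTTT
Clonotype 4 TRA: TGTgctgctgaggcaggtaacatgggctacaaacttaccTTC
Clonotype 22 TRB: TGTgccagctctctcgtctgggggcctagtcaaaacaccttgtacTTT
Clonotype 22 TRA: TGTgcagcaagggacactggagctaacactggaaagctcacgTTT

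Clonotype 1 had 9 cells, of which 3 were members and 5 were CD8 T cells with a granzyme or Cx3cr1 UMI. Its β chain joined Trbv12-2 (chr6:41118864-41119364, GRCm38) to Trbj1-6 (chr6:41535554-41535606). The 3 members held 42, 124 and 86 Ccl5 UMIs and 0, 0 and 1 Il2rb UMIs, so that Ly6c2, with 20, 15 and 16 UMIs, made them members. The 5 granzyme cells of the clone held 76 to 128 Ccl5 UMIs, a range that overlaps that of the members. Clonotype 4, which joined Trbv16 (chr6:41151791-41152230) to Trbj2-5 (chr6:41543453-41543501), had 1 member with 52 Ccl5 UMIs and 3 granzyme cells with 123 to 183. Its TRB sequence was read in 3 of the 4 cells and its TRA sequence in 2. Clonotype 22, which joined Trbv12-1 (chr6:41113567-41114067) to Trbj2-4 (chr6:41543362-41543410), had 2 cells, both members, with 20 and 24 Ccl5 UMIs, and its TRB sequence was read in 1 of them. The other 2 clonotypes, 11 and 12, each joined 1 member without a Ccl5 UMI to 1 CD8 T cell that had 1 or 2 Ly6c2 and Il2rb UMIs or none. Thus 4 members shared a clonotype with granzyme cells, and all 4 held at least 42 Ccl5 UMIs. These 4 were shallow for members, with 5410, 6431, 4854 and 5467 UMIs in all, below the members' lower quartile of 7502. A granzyme UMI is missed more easily in a shallow cell, and the part of depth in their membership was not tested.

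Gene segment use of the members was broad. Of 203 members with a TRB chain, 20 V assignments were seen, the most frequent being Trbv12-2 in 21 cells (10.3%, 6.52% to 15.4%) and Trbv16 in 20 (9.85%, 6.12% to 14.8%). In the CD8 T cells without a Ly6c2 or Il2rb UMI these were in 4 and 7 of 92 cells (4.35% and 7.61%), with intervals that overlap those of the members. A further 17 members (8.37%) and 6 comparison cells (6.52%) had a chain that the deposited table gives to Trbv12-2 and Trbv13-2 jointly, counted as an assignment of its own. Among the 12 J segments, Trbj2-1 was in 33 of 203 members (16.3%, 11.5% to 22.1%), 5 of 92 cells without a Ly6c2 or Il2rb UMI (5.43%, 1.79% to 12.2%) and 4 of 97 with a granzyme or Cx3cr1 UMI (4.12%, 1.13% to 10.2%). It was chosen among the 12 for its difference. The CDR3 of the β chain was 14.0 ± 1.44 amino acids long in the members (mean ± SD over 203 cells) and 13.8 ± 1.63 in the 92 comparison cells. No member carried the Trav11 to Traj18 join of invariant NKT cells or the Trav1 to Traj33 join of MAIT cells.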

How the data were processed

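The authors processed the reads with Cell Ranger (version 4 in the matrix header) on GRCm38 per the labels, and deposited raw UMI counts of 32285 genes for 300213 barcodes, not filtered for cells, and a table of TCR contigs with read and UMI counts and clonotypes. No column of another sample was present (0 unused columns). Genes were placed by RefSeq on GRCm38.p6, which matched 293 of 295 named genes. Counts were pooled per group and given per 10000 UMIs. Ratios were taken over genes with a mean of at least 0.5 per 10000 in the groups compared, leaving out ribosomal protein, mitochondrial, TCR, immunoglobulin and rule genes. A gene was counted as higher or lower past 2-fold. Groups with 0 UMIs were set to 3 UMIs. Shares of cells were also computed after thinning each cell to 2500 UMIs, which left out 1 member and 13 cells without a Ly6c2 or Il2rb UMI. Named genes are those of fixed lists, of which 254 of 256 genes were in the files, and the 12 highest and 12 lowest ratios to the cells without a Ly6c2 or Il2rb UMI. Some of these genes are not reported here. The members and lists were chosen with earlier results of these data known, and the Ccl5 division after its values were seen. B cells were called cells with at least 10% ribosomal protein UMIs, at least 2 UMIs of Cd79a and Cd79b and no CD3 UMI, and had a median of 4088 UMIs. The profile of free RNA came from the 20532 barcodes holding between 10 and 50 UMIs. Predicted doublets (Scrublet) were kept. The ratio and thinning code was tested on simulated data. Python 3.11.15, Scanpy 1.11.5, NumPy 2.4.6, SciPy 1.17.1 and pandas 2.3.3 were used. Alternatives were other limits of the rule, other pooling and scaling, other comparison cells, free RNA subtraction, removal of doublets and other clonotype definitions.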

Additional observations from a re-analysis of the deposited data

How the results depend on the processing

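No paired analysis was possible because the series used here is 1 library of 1 mouse. The number of members stayed within 1.5 times of 213 in all 10 alternatives, from 146 to 277. Their share of CD8 T cells left its interval in 3 of them, at 48.3% with a limit of 2 Ly6c2 and Il2rb UMIs, 54.6% with granzyme and Cx3cr1 cells kept and 30.7% after thinning to 2500 UMIs. The counts of genes past 2-fold (21 higher, 23 lower) depended more on the setting. The lower genes were 40 of 2681 when cells were averaged and 14 of 2540 against cells with 0 to 2 Ly6c2 and Il2rb UMIs. Higher and lower genes were 51 and 90 of 2642 after thinning. They were 50 and 45 when scaled without ribosomal and mitochondrial genes (3959 genes then reached the level needed). At a level of 0.2 per 10000 they were 98 and 111 of 5557, and at 1 per 10000 9 and 4 of 1123. The number of genes compared, 2544 in the main setting, thus moved as well, so these counts do not share a base. Split after the data were seen, higher and lower genes were 71 and 78 of 2585 in members with 3 or more Ccl5 UMIs. In members with 0 to 2 they were 6 and 10 of 2540. There S100a6 was at 0.763 (0.492 to 1.19) instead of 4.56, with 19 of the 39 UMIs of the comparison cells in 1 cell. The share with a clonotype and the share in clonotypes of 2 or more cells stayed within their intervals in all alternatives tried. Of 968 values of named genes under the alternatives planned, 932 stayed within the interval of the ratio and 36 did not. Under these, no gene past 2-fold changed direction, 5 of 28 fell short of 2-fold in at least 1 alternative (Itgb1, Plac8, Nkg7 and Gbp2 among them), 6 others were past it on the higher side and 2 on the lower in at least 1, and 32 values of 18 genes with ratios between 0.850 and 1.08 crossed 1, among them B2m (0.956, to 1.02) and Dapl1 (0.936, to 1.11) when each cell counted equally. Under the same alternatives all 107 list medians stayed within 1.5 times. In the division by Ccl5, 77 of 235 named gene values and 1 of 21 list medians moved beyond these limits, beside S100a6. The causes were not tested. With 1 mouse, no spread between animals is known, and genes below about 0.5 UMIs per 10000 rest on few counts.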
